A study of Mus musculus with 6 samples.

Results

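The renin-angiotensin genes and peptidases were 9 of the 54532 genes in the deposited tables, taken by name: Ren1, Agt, Ace, Agtr1a, Atp6ap2, Enpep, Mme, Tmem27 and Mas1. All 9 have a row, with Tmem27 under its newer name Cltrn, and all 9 passed the filter on low counts. RNA was sequenced from kidney tissue of 3 C57BL/6J WT mice (numbered 1, 2 and 3) and 3 TRPM2-KO mice (Trpm2-/-, numbered 1, 2 and 4), each killed 72 h after 18 mg/kg cisplatin, a nephrotoxic anticancer drug. Every mouse received the drug, so the 2 genotypes were compared under treatment, and no value for an untreated kidney enters. The labels give an age of 6 to 8 weeks, and the methods an older range. The methods describe a line with 2 channel exons removed in the whole body, male animals, and WT mice bought from a supplier while the Trpm2-/- line came from another institution, so genotype and source cannot be told apart.

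In the classical pathway, renin from juxtaglomerular cells cuts angiotensinogen to angiotensin I, and angiotensin-converting enzyme (Ace) removes the last residues to give angiotensin II. Angiotensin II acts on the type 1 receptor (Agtr1a) to constrict vessels and retain sodium, while aminopeptidase A (Enpep) and neprilysin (Mme) cut the peptides further and Mas1 is a receptor for a shorter product. Kidneys carry most of these parts locally, with Ace, Enpep, Mme and collectrin (Tmem27) on the brush border of the proximal tubule, and that tubule is also a main site of cisplatin injury. Atp6ap2, the (pro)renin receptor, is an accessory subunit of the vacuolar proton pump.

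Of the 9 genes, 3 were lower in Trpm2-/- kidneys at an adjusted p under 0.05 by edgeR's quasi-likelihood test, none was higher and 6 were not called. The 3 were Ace, Tmem27 and Agt, and they were also the 3 whose libraries did not overlap between genotypes. Among all 15816 genes tested, 7.28% were called lower and 4.74% higher, and 16.8% were lower and 16.7% higher without overlap. The median log2 fold change, Trpm2-/- minus WT, was -0.41 over the 9 genes and 0.019 over all genes tested. At the study's threshold of an absolute log2 fold change above 1 and an unadjusted p under 0.05, Ace was the 1 gene called lower and none was called higher, where 4.10% and 3.50% of all genes were called. No gene of the 9 was called higher at an unadjusted p under 0.05 or by DESeq2 either.

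The libraries held 14053307 to 17150089 counts on genes, so that 3 counts correspond to 0.175 to 0.213 CPM, the counts on a gene per 1000000 counts on all genes. Levels in CPM below are scaled by the TMM-normalized library size. Trpm2 itself had 5 to 27 counts in a WT library and 10 to 20 in a Trpm2-/- library (log2 fold change 0.36, SE 0.675, adjusted p = 0.776). A count over the whole gene includes exons that the allele keeps, so it does not check the genotype labels. Genes of the mitochondrial genome took 4.43 to 4.72% of the counts in WT and 7.91 to 11.0% in Trpm2-/- libraries. The 9 proximal tubule markers, among them Slc34a1 and Cubn, were all lower in Trpm2-/- kidneys with a median log2 fold change of -1.39. Their summed level was 4351.3 to 5802.4 CPM in WT and 1837.5 to 2357.1 CPM in Trpm2-/- libraries. The 5 podocyte markers summed to 130.4 to 173.3 CPM in 5 libraries and to 509.8 CPM in Trpm2-/- mouse 4, and the endothelial, fibroblast and mesangial marker sums were also highest in that mouse.

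**Figure D1:**
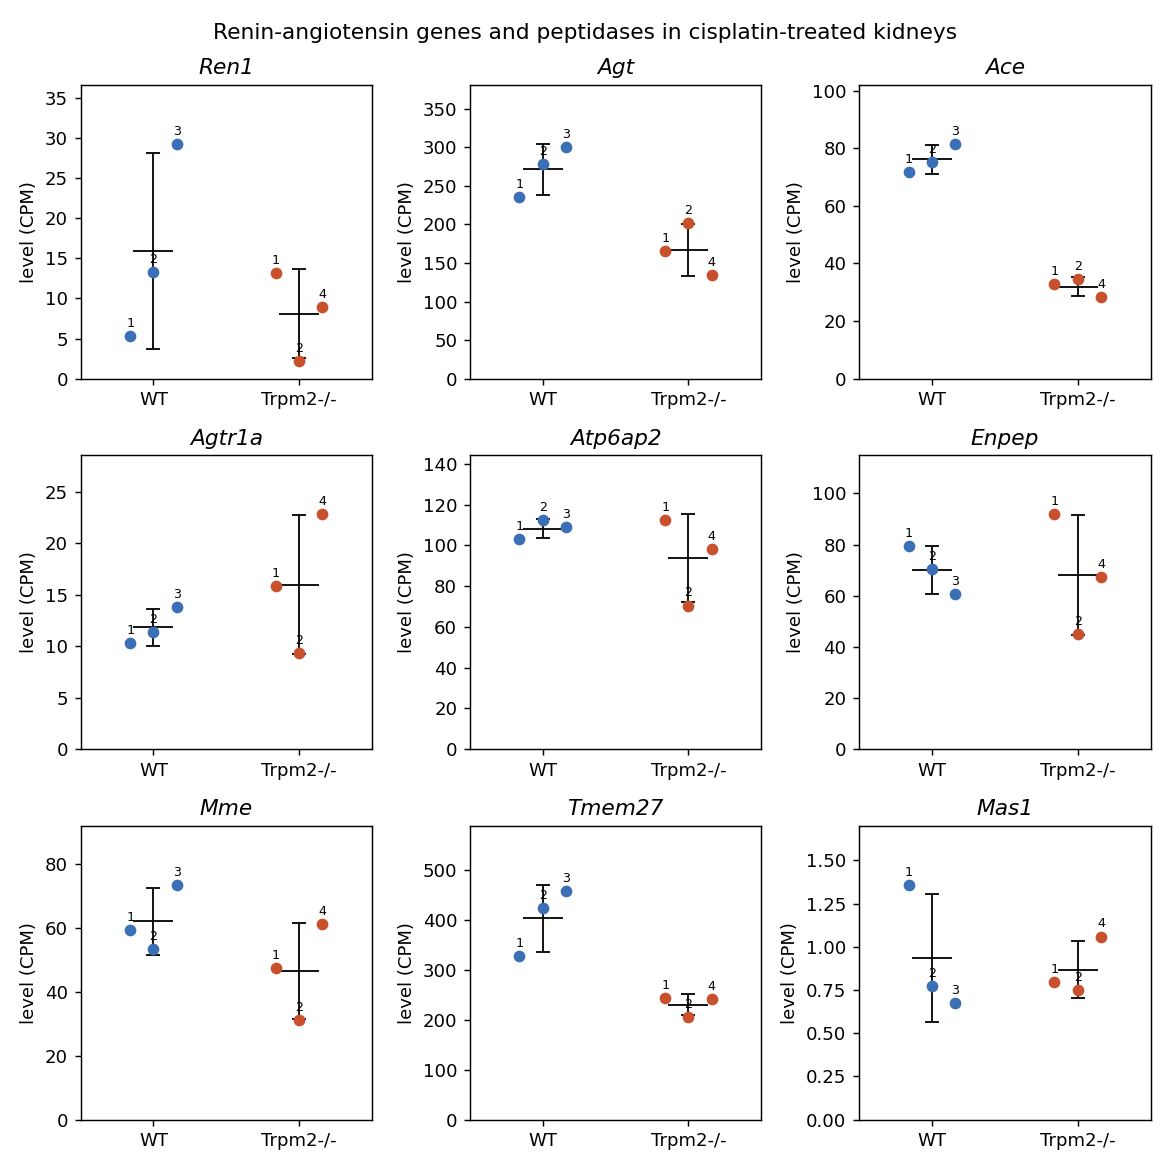
Level of the 9 genes in each library, in CPM with TMM-normalized library sizes, on axes that start at 0, with numbered points for single mice, horizontal lines for genotype means and bars for the SD (n = 3). For Ace, Agt and Tmem27 all Trpm2-/- points lie below all WT points, and Ren1 spreads more than 5-fold within each genotype.

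Agt encodes angiotensinogen, the only known precursor of the angiotensins. In GRCm38, the build used for all positions here, it is on chromosome 8 at 124556534-124569706 (minus strand). The codons of angiotensin I lie in exon 2 of 5 of its transcript, at chr8:124564450-124564479 on the minus strand, and they are printed because the enzymes below act on the peptide they encode. The capitals mark the codon of the residue that aminopeptidase A removes, at the start, and the codons of the residues that Ace removes, at the end.
Agt, angiotensin I codons: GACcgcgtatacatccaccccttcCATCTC

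Agt had 235.2, 278.6 and 300.5 CPM in WT mice and 165.6, 201.3 and 133.9 CPM in Trpm2-/- mice 1, 2 and 4. The lowest WT library stood above the highest Trpm2-/- library, and the spread within a genotype was 1.28-fold and 1.5-fold. The mean was 271.5 ± 33.2 CPM (SD, n = 3) in WT and 166.9 ± 33.8 CPM (SD, n = 3) in Trpm2-/- kidneys, 61.5% of the WT level. The log2 fold change was -0.70 (SE 0.175, adjusted p = 0.0317 by edgeR's quasi-likelihood test). This call did not hold without WT mouse 2 (adjusted p = 0.116), WT mouse 3 (0.14), Trpm2-/- mouse 1 (0.0782) or Trpm2-/- mouse 4 (0.0616), with log2 fold changes between -0.70 and -0.56. In RNA from kidney tissue, fewer cells of a type and less RNA per cell cannot be told apart, here and for every gene below.

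Ren1 encodes renin, the enzyme whose release limits the rate of the pathway, and lies on the plus strand of chromosome 1 at 133350510-133360325. Its level was 5.3, 13.3 and 29.3 CPM in WT mice and 13.2, 2.18 and 8.9 CPM in Trpm2-/- mice. The genotypes overlapped widely, with a 5.52-fold spread within WT and a 6.02-fold spread within Trpm2-/- kidneys. The log2 fold change was -0.98 with an SE of 0.648 (adjusted p = 0.363), and it was not called. It was -0.20 without WT mouse 3 and -1.52 without Trpm2-/- mouse 1. Without a filter on low counts, the same estimate had an adjusted p of 0.000898, the 1 setting of 18 in which Ren1 was called.

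Ace had the largest fall of the 9 genes. It encodes a peptidyl-dipeptidase, which removes the last residue pair of angiotensin I to make angiotensin II and also degrades bradykinin, and it lies on the plus strand of chromosome 11 at 105967945-105989964. Its level was 71.7, 75.4 and 81.6 CPM in WT mice and 32.8, 34.7 and 28.4 CPM in Trpm2-/- mice. Replicates lay close together, within 1.14-fold in WT and 1.22-fold in Trpm2-/- kidneys, and a wide gap separated the genotypes. The means were 76.2 ± 5.01 and 32.0 ± 3.23 CPM (SD, n = 3 each), so that Trpm2-/- kidneys held 41.9% of the WT level. The log2 fold change was -1.25 (SE 0.132, adjusted p = 0.00131), and Ace was called in each of the 18 alternative settings, with log2 fold changes from -1.32 to -1.11. The gene has a further start inside it, used in the testis, and the gene count covers both starts.

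Tmem27 encodes collectrin, a membrane protein of the proximal tubule that has no peptidase activity of its own and that chaperones amino acid transporters. It lies on the plus strand of chromosome X at 164088830-164118860. Its level was 327.9, 425.2 and 457.8 CPM in WT mice and 243.5, 206.5 and 242.0 CPM in Trpm2-/- mice. All 3 Trpm2-/- libraries were below all WT libraries, and they varied less among themselves (1.18-fold) than the WT libraries did (1.4-fold). The mean fell from 403.6 ± 67.6 to 230.7 ± 20.9 CPM (SD, n = 3 each), which is 57.2% of WT. The log2 fold change was -0.81 (SE 0.162, adjusted p = 0.0134). Without WT mouse 2 or WT mouse 3 the adjusted p was 0.0661 and 0.0748, at log2 fold changes of -0.77 and -0.71.

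The 250 bases before a RefSeq start of the 3 genes that fell are shown because these genes moved in the same direction. They come from the RefSeq promoter table (GRCm38.p6), which held entries for 8 of the 9 genes, all but Agtr1a. They run 5′ to 3′ along the gene, for Agt from chr8:124569707-124569956 (minus strand), for Ace from chr11:105967698-105967947 (plus strand) and for Tmem27 from chrX:164089937-164090186 (plus strand). The stretch of Tmem27 lies inside the span given above, since other annotated transcripts of the gene start further upstream, and the table holds a further Tmem27 start downstream. Capitals mark matches, on either strand, to 4 motifs: the core of a promoter element that places the start (TATAAA), part of the site that HNF1 factors bind (GTTAAT), a motif of nuclear receptors (AGGTCA) and the motif of the Sp1 factor (GGGCGG).
Agt: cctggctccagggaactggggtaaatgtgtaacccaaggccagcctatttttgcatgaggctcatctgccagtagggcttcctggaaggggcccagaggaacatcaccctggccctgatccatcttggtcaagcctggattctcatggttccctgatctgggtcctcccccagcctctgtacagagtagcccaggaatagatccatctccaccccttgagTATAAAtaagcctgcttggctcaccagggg
Ace: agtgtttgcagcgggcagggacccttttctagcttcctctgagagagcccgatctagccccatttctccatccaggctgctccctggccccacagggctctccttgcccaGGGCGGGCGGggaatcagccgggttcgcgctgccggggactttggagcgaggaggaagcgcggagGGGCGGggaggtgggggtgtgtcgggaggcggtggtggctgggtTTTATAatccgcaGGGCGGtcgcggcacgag
Tmem27: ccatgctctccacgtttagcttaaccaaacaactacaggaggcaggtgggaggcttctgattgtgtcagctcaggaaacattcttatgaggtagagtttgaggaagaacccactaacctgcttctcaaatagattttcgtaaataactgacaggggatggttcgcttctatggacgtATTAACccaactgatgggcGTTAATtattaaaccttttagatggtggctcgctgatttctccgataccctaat

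The 3 upstream stretches differed in these motifs. A TATAAA lay 30 bases before the start of Agt, along the gene, and 31 before that of Ace, on the opposite strand. Ren1 (along the gene) and Enpep (opposite strand) also held one. On either strand, 12.4% of the 32851 promoters in the table held one. The printed stretch of Tmem27 held no TATAAA and had GTTAAT 54 and 73 bases before that start, while its further entry held none of the 4 motifs. GTTAAT is a motif that none of the other 7 genes with an entry held and that 6.43% of all promoters hold. Ace had 4 GGGCGG, of which 2 overlap each other, a motif found in 32.7% of promoters and also before Atp6ap2 and Mme. AGGTCA, in 14.0% of promoters, was found among the 12 entries of these genes only before the inner start of Ace. A match describes these letters and not binding.

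**Figure D2:**
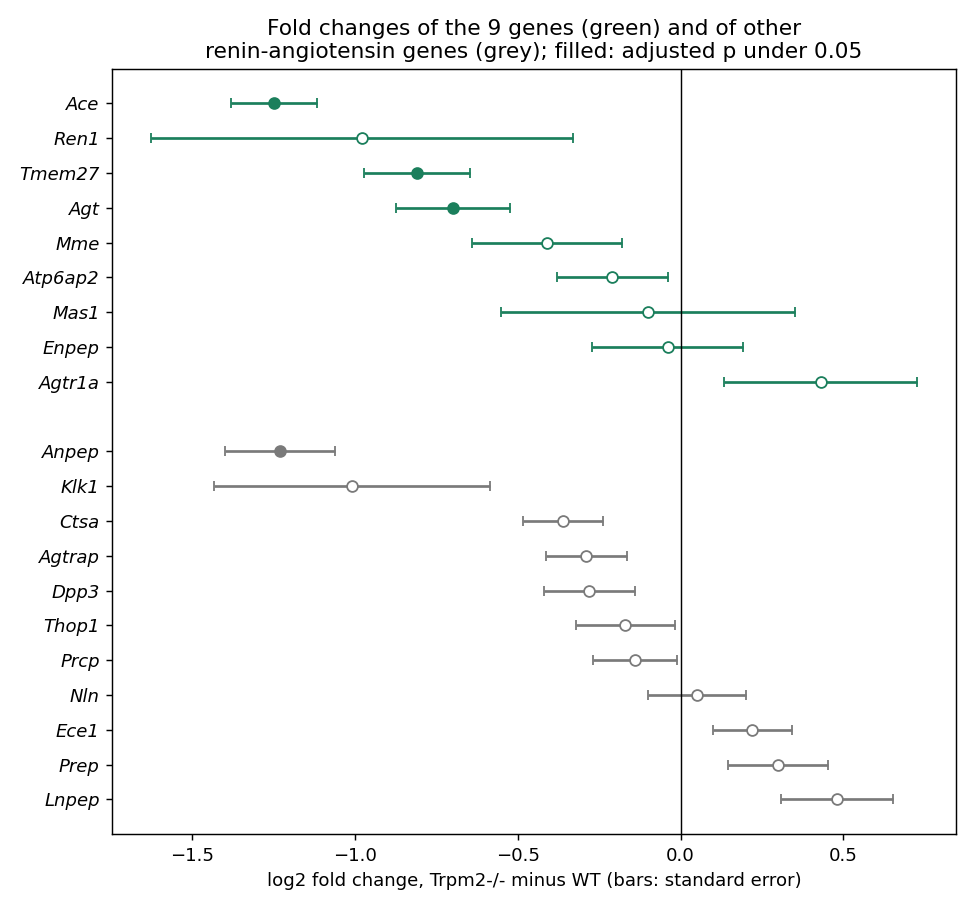
Log2 fold change, Trpm2-/- minus WT, of the 9 genes (green) and of the 11 other renin-angiotensin genes tested (grey), with bars for the standard error from edgeR and filled points at an adjusted p under 0.05. Ace (-1.25), Tmem27 (-0.81), Agt (-0.70) and Anpep (-1.23) are called, and Agtr1a (0.43) is the only green point above 0.

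The receptors did not pass the test. Agtr1a, the main vascular and tubular receptor for angiotensin II (chromosome 13, 30336441-30382867, plus strand), had 10.3, 11.4 and 13.8 CPM in WT mice and 15.8, 9.29 and 22.8 CPM in Trpm2-/- mice. It was highest in Trpm2-/- mice 4 and 1 and lowest in Trpm2-/- mouse 2, so the genotypes overlapped. The log2 fold change was 0.43 (SE 0.297, adjusted p = 0.382). It was 0.10 without mouse 4, in which the podocyte markers also stood apart, and 0.70 without mouse 2, and the part of those markers in it was not tested.

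Mas1 (chromosome 17, 12841079-12868143, minus strand) was the least abundant, with 22, 12 and 11 counts in WT and 13, 11 and 17 counts in Trpm2-/- libraries. These correspond to 0.675 to 1.36 CPM and 0.751 to 1.06 CPM, and the genotypes overlapped (log2 fold change -0.10, SE 0.453, adjusted p = 0.911). Mas1 lies opposite the antisense transcript Airn, which had 22 to 86 counts per library. Whether the counting used strand is not given in the sources used here, so reads of these 2 genes cannot be told apart with certainty.

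Atp6ap2 (chromosome X, 12587801-12617049, plus strand) had 103.3, 112.4 and 109.1 CPM in WT mice and 112.7, 70.5 and 98.4 CPM in Trpm2-/- mice. WT libraries were nearly level, and Trpm2-/- mouse 2 was the lowest while mouse 1 was the highest of all 6. The log2 fold change was -0.21 (SE 0.171, adjusted p = 0.476). Of the other subunits common to vacuolar proton pumps, 4 of 14 were lower and none was higher, with a median log2 fold change of -0.44. The 4 belong to the cytosolic part that splits ATP: Atp6v1f (-0.68, adjusted p = 0.0152), Atp6v1e1 (-0.60, 0.0204), Atp6v1h (-0.63, 0.0312) and Atp6v1d (-0.45, 0.0381). None of the 14 was called without WT mouse 2 or without WT mouse 3, and 2 were called without WT mouse 1 or without Trpm2-/- mouse 4.

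The 2 other peptidases of the brush border among the 9 genes were not called. Enpep, aminopeptidase A, which removes the first residue of angiotensin II (chromosome 3, 129269175-129332720, minus strand), had 79.3, 70.4 and 60.7 CPM in WT mice and 91.9, 45.0 and 67.4 CPM in Trpm2-/- mice. The highest and the lowest value were both from Trpm2-/- mice, and the means were 70.1 ± 9.29 and 68.1 ± 23.5 CPM (SD, n = 3 each). Its log2 fold change was -0.04 (SE 0.232, adjusted p = 0.933), the closest to 0 of the 9 genes, and it turned to 0.05 without WT mouse 1 and to 0.18 without Trpm2-/- mouse 2. Mme, neprilysin, which cuts angiotensin I, natriuretic peptides and kinins (chromosome 3, 63241537-63386030, plus strand), had 59.4, 53.3 and 73.6 CPM in WT mice and 47.5, 31.2 and 61.3 CPM in Trpm2-/- mice. Trpm2-/- mouse 4 lay above 2 of the WT mice, and the log2 fold change was -0.41 (SE 0.23, adjusted p = 0.277).

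Most other brush border peptidases fell where Enpep and Mme did not pass the test. Of 8 such genes listed, 6 were lower and none was higher, with a median log2 fold change of -1.48. Mep1a, a subunit of the metalloprotease meprin, had 842.4, 984.7 and 1326.0 CPM in WT and 286.3, 374.3 and 299.9 CPM in Trpm2-/- mice (log2 fold change -1.71, SE 0.203, adjusted p = 0.00184). Xpnpep2, an aminopeptidase that degrades bradykinin, fell by 2.71 on the log2 scale (SE 0.457, adjusted p = 0.00662), and Ggt1, which starts the breakdown of glutathione, fell by 1.32 (SE 0.228, adjusted p = 0.0071). Dpp4 (-0.28, adjusted p = 0.533) and Folh1 (-0.41, adjusted p = 0.206) were not called. The count was 5 without WT mouse 2 and 4 without WT mouse 3 or Trpm2-/- mouse 1. The difference between these genes and Enpep or Mme was not tested.

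Of the 19 other genes of the renin-angiotensin system listed, 18 have a row and 11 were tested, of which 1 was lower and none higher, with a median log2 fold change of -0.17. Anpep, aminopeptidase N, which trims angiotensin III, had 211.4, 199.0 and 177.8 CPM in WT and 85.2, 65.4 and 99.7 CPM in Trpm2-/- mice. It fell by 1.23 on the log2 scale (SE 0.169, adjusted p = 0.00332). The genotypes did not overlap, and the gene also belongs to the brush border list. Without Trpm2-/- mouse 4, 2 of the 11 were called lower, and without Trpm2-/- mouse 2, 1 was called higher.

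The remaining tested genes of that list were not called at an adjusted p under 0.05. Lnpep, which binds angiotensin IV, had a log2 fold change of 0.48 (adjusted p = 0.101), and Ctsa, a lysosomal carboxypeptidase, one of -0.36 (adjusted p = 0.0887), each without overlap. Klk1, tissue kallikrein, stood at 396.1 to 1455.6 CPM in Trpm2-/- and 1154.7 to 2295.3 CPM in WT libraries, with overlap (-1.01, adjusted p = 0.153). At the study's threshold Klk1 was lower (unadjusted p = 0.0393 by edgeR), as was Anpep. The 7 untested genes had at most 0.0623 CPM in any library. Of these, 5 had no count in any library: Agtr2, the type 2 receptor, Mrgprd, and the mast cell or neutrophil proteases Ctsg, Mcpt4 and Cpa3, which allows up to 0.213 CPM in the shallowest library. Ren2 has no row, and C57BL/6 mice carry a single renin gene.

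Among genes that control renin release, 2 of the 8 tested were higher and none was lower, with a median log2 fold change of 0.47. Ptgs2, cyclooxygenase-2, the source of the prostaglandins that reach the juxtaglomerular cells, had 6.91, 5.65 and 2.58 CPM in WT and 22.7, 14.4 and 17.2 CPM in Trpm2-/- mice. It rose by 1.84 on the log2 scale (SE 0.339, adjusted p = 0.00913). Ptger4, a prostaglandin E receptor through which renin release is stimulated, had 5.8, 7.32 and 5.77 CPM in WT and 12.9, 13.5 and 16.3 CPM in Trpm2-/- mice, and rose by 1.17 (SE 0.206, adjusted p = 0.00756). Neither gene overlapped between genotypes, and both were called without each mouse in turn. In the same libraries the 5 injured tubule markers had positive log2 fold changes, with Sox9 (1.16, adjusted p = 0.0115) and Krt20 (0.79, adjusted p = 0.0189) called. Their summed level was 2764.5 to 3290.3 CPM in WT and 3848.9 to 4861.5 CPM in Trpm2-/- libraries. Smooth muscle markers summed to 115.5 to 129.1 and 159.1 to 163.0 CPM (1 of 4 tested called higher, Acta2 at 1.46). Most of that sum was Smtn, at 101.8 to 111.0 and 90.7 to 137.0 CPM, which overlapped and was not called (0.16). Mesangial markers summed to 97.9 to 111.8 and 159.1 to 205.7 CPM (1 of 5 called higher, Serpine2 at 0.90). Serpine2 made up most of it, at 59.1 to 75.2 and 121.3 to 133.3 CPM. The other mesangial markers overlapped between genotypes and were not called. The part of these cells in the rise of Ptgs2 and Ptger4 was not tested. Ren1 itself overlapped, as above. Gja5, connexin 40 of the juxtaglomerular cells, had 14.9 CPM in Trpm2-/- mouse 4 and 1.29 to 4.26 CPM in the other 5 libraries (adjusted p = 0.236).

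Ace and Mme, counted among the 9 genes, also cut kinins but are not in the list of kallikrein-kinin genes. Klk1 is in that list and in the list of other renin-angiotensin genes. Of 7 kallikrein-kinin genes tested, 2 were lower and none was higher, with a median log2 fold change of -0.60. Kng2, a kininogen that yields bradykinin, had 355.3, 400.9 and 615.3 CPM in WT and 138.1, 242.4 and 285.1 CPM in Trpm2-/- mice (log2 fold change -1.04, adjusted p = 0.0426). Cpn1, the catalytic subunit of carboxypeptidase N, which inactivates kinins, had a log2 fold change of -0.60 (adjusted p = 0.0183). No gene of this list was called without WT mouse 2 or without WT mouse 3, and 1 was called without Trpm2-/- mouse 1 or 2. The bradykinin receptor Bdkrb2 was at 4.88 to 7.24 CPM in WT and 6.9 to 10.6 CPM in Trpm2-/- libraries (adjusted p = 0.199).

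Downstream, genes of the mineralocorticoid response showed none of 11 lower and 1 of 11 higher, with a median log2 fold change of -0.30. Wnk1, a kinase that regulates distal salt transport, rose from 151.2 ± 17.1 to 227.6 ± 34.2 CPM (SD, n = 3 each; log2 fold change 0.59, adjusted p = 0.038). The aldosterone-induced kinase Sgk1 had 226.4 to 238.3 CPM in WT and 177.1 to 184.4 CPM in Trpm2-/- libraries, without overlap and not called (-0.35, adjusted p = 0.0846). The sodium channel subunit Scnn1a likewise did not overlap and was not called (-0.58, adjusted p = 0.0926). Without Trpm2-/- mouse 4, 3 genes of this list were called lower. None was called higher without WT mouse 2 or 3 or without Trpm2-/- mouse 1 or 4.

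For the counts of 0 above, edgeR at an unadjusted p under 0.05 gave 1 gene higher among the other renin-angiotensin genes (Lnpep) and 1 among the proton pump subunits (Atp6v0a1). It gave none higher among the kallikrein-kinin genes or brush border peptidases and none lower among the regulators of renin release, while 3 mineralocorticoid response genes were lower (Sgk1, Scnn1a and Tsc22d3). At an adjusted p under 0.05 limma-voom called none of these lists in that direction, and DESeq2 called 2 mineralocorticoid response genes lower and none in the other 5 cases.

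**Figure D3:**
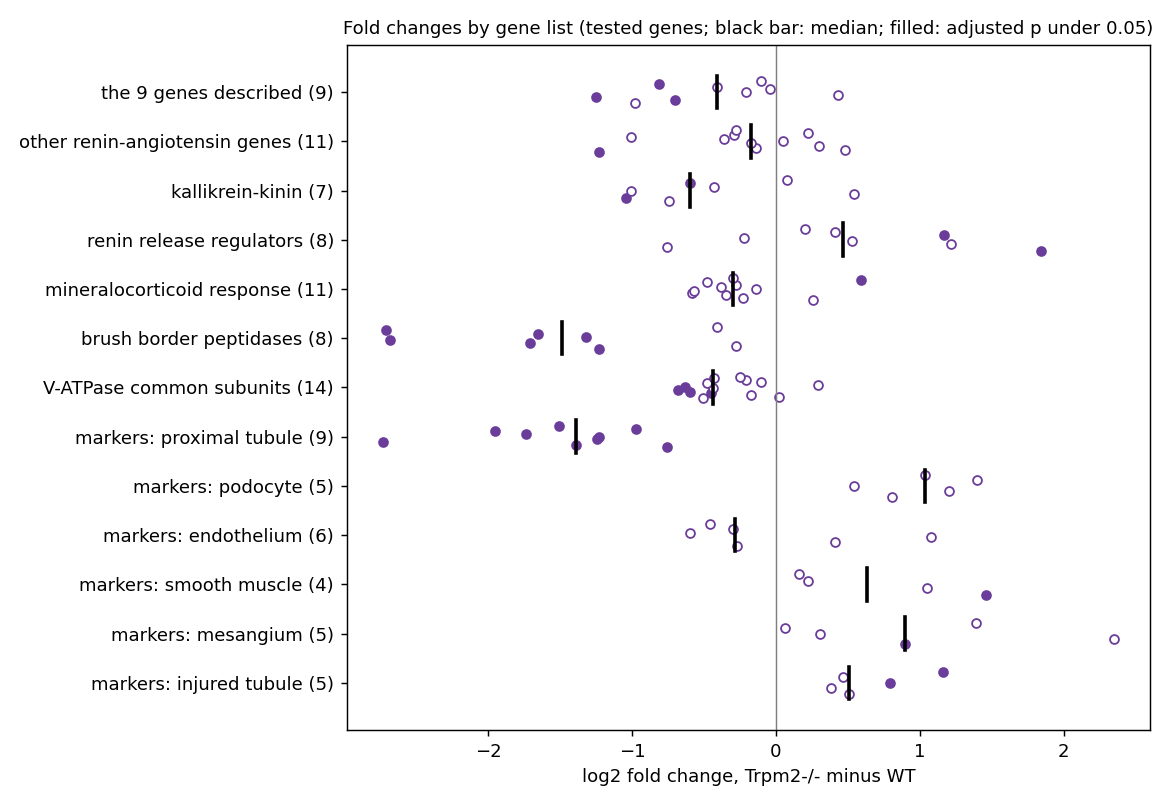
Log2 fold changes, Trpm2-/- minus WT, of the genes tested in the 9-gene set, the 6 other pathway lists and the proximal tubule, podocyte, endothelial, smooth muscle, mesangial and injured tubule marker lists, with the number tested in parentheses, with 1 point per gene, filled where the adjusted p was under 0.05, and a bar at each list's median. The brush border peptidases (median -1.48) and proximal tubule markers (-1.39) have the lowest medians of the lists drawn, while the renin release regulators (0.47) are the pathway list with the highest median.

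Because the proximal tubule markers fell in the same libraries, each of the 9 genes was also set against them, as its log2 CPM minus the mean log2 CPM of the 9 markers. That mean was 7.88, 8.07 and 8.27 in WT and 6.62, 5.92 and 6.96 in Trpm2-/- mice, a difference of -1.58. Subtracting a reference that fell raises every gene, and the median difference on this scale was 1.58 over the 15748 tested genes with a count in every library. Set against all genes, a gene is thus to be read against 1.58, while 0 marks a fall as large as that of the marker mean. On this scale 7 of the 9 genes were higher in Trpm2-/- mice without overlap, where 86.9% of all 15816 genes tested were higher and 0.335% lower in this way, so the count is no result about these genes. The difference was 1.92 for Agtr1a, above the median gene, and 1.52 for Mas1, 1.48 for Enpep, 1.34 for Atp6ap2 and 1.12 for Mme, below it. They were 0.86 for Agt, 0.78 for Tmem27, 0.57 for Ren1 and 0.32 for Ace, which lay at the percentiles 9.51, 7.79, 4.92 and 3.01 of the genes with a count in every library. The same marker mean is subtracted from every gene, so these percentiles restate the differences in log2 CPM and are not a second result.

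The log2 ratio of Ace to the markers was -1.72, -1.83 and -1.92 in WT and -1.58, -0.80 and -2.13 in Trpm2-/- mice. The Trpm2-/- values lay on both sides of the WT values, and the difference of 0.32 had p = 0.6 in a two-sided exact permutation test, in which 3 mice against 3 cannot go below 0.1. Leaving out each mouse in turn moved it between -0.03 and 0.63. Ren1, described above as a product of juxtaglomerular cells, also overlapped (exact permutation p = 0.5). Both tests ask about a difference from 0 and not from the 1.58 of the median gene. They therefore do not place Ace or Ren1 among the other genes. The markers themselves fell unequally, from -0.76 for Lrp2 to -2.73 for Slc34a1 on the log2 scale, so a ratio to their mean depends on the markers listed. The part of cell number in these ratios was not tested.

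**Figure D4:**
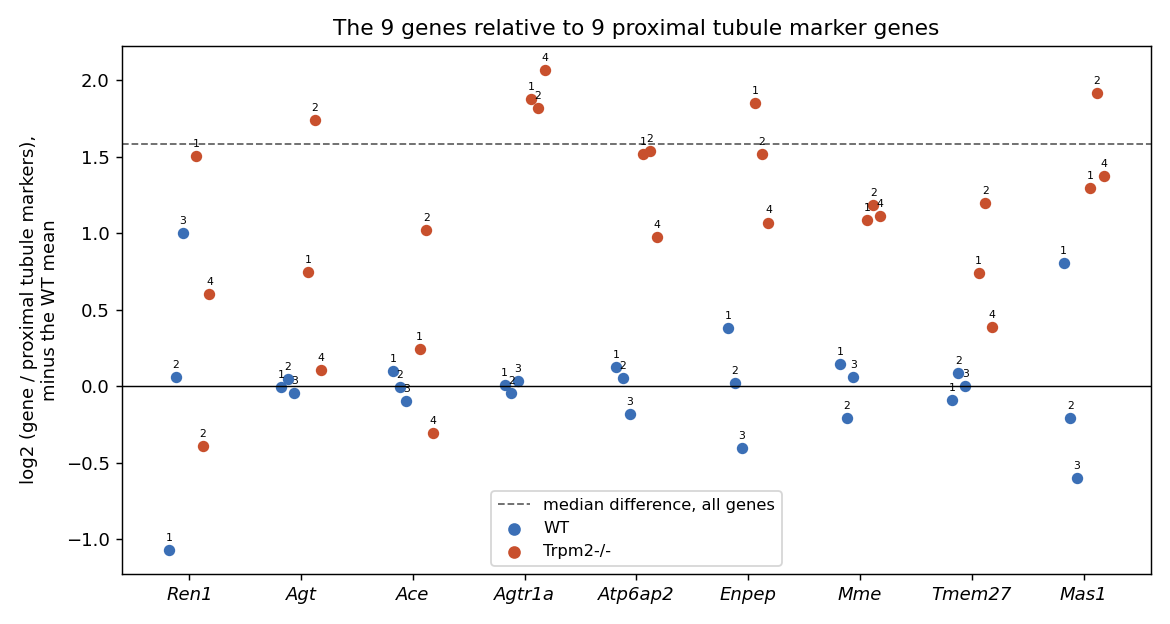
Log2 ratio of each of the 9 genes to the mean of 9 proximal tubule markers in each mouse, drawn relative to the gene's WT mean (0 on the axis), with numbered points for mice. The dashed line at 1.58 is the median difference of all genes, which is where a gene that kept its CPM lies, since the marker mean fell by that much. Ace (0.32) and Ren1 (0.57) have the smallest differences, with overlap, and Agtr1a (1.92) the largest.

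Levels of different genes were compared per length, as FPKM (read counts scaled by gene length and library size). In WT kidneys Tmem27 was the most abundant of the 9 at 228.6 ± 37.7 FPKM, followed by Agt at 125.5 ± 15.0 and Atp6ap2 at 36.2 ± 1.49 (SD, n = 3 each). Enpep (13.0 ± 1.77), Ace (12.6 ± 0.791), Ren1 (8.41 ± 6.41), Mme (4.7 ± 0.776) and Agtr1a (3.72 ± 0.55) came next, and each overlapped its neighbour in this order. Mas1 was lowest at 0.312 ± 0.124 FPKM, below every library of the other genes. In Trpm2-/- kidneys Tmem27 (131.8 ± 12.6), Agt (77.8 ± 15.2), Atp6ap2 (31.6 ± 7.33) and Enpep (12.8 ± 4.41) kept the first 4 places, each without overlap with the next. Ace, at 5.33 ± 0.505 FPKM, no longer overlapped Enpep. It overlapped Agtr1a (5.06 ± 2.17) and Ren1 (4.31 ± 2.95) and lay just above every library of Mme (3.57 ± 1.17).

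The gene with the most similar profile to each of the 9 was found among 13010 genes at 1 CPM or more, as the smallest root mean square difference of standardized log2 CPM over the 6 libraries. Ace was closest to Med27, a Mediator subunit (0.0316), Agt to Ogfr, the opioid growth factor receptor (0.0348), and Tmem27 to Txndc15 (0.0556). For the other 6 the closest profiles were farther away: Atp6ap2 and Sectm1b (0.105), Enpep and Usp15 (0.132), Agtr1a and Gnb1l (0.132), Mme and Fxyd6 (0.133), Ren1 and Akr1c12 (0.137), and Mas1 and Heg1 (0.188). The likeness is of shape and not of size, since Med27 differed by -0.44 on the log2 scale (adjusted p = 0.148) where Ace differed by -1.25. With 6 libraries and so many candidates, close matches are found for many profiles, and these are descriptions.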

How the data were processed

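RNA-sequencing of 6 kidneys (3 per genotype) was used. The 9 genes, the other lists and the settings were chosen with earlier results of these data known, so none is independent evidence. The authors deposited whole-number read counts per gene, without normalization, and FPKM values, which are scaled by gene length and library size. The FPKM did not follow the total counts alone. Ace had 1162 of 15991951 counts in WT mouse 1 and 1174 of 16775965 in WT mouse 2, but 11.9 and 12.5 FPKM. The labels name HISAT2, StringTie and the mm9 build without their roles, while 98.3% of 54495 shared genes, and all 9 named here, have the positions of GENCODE mouse release 21 (GRCm38), which is used in the text. Strandedness is not given in the sources used here. Samples were grouped by the genotype in the labels, which do not say more of how replicates were taken, so p-values measure the spread between these mice.

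The counts were fitted with edgeR 4.0.16 in R 4.3.3: filterByExpr (15816 genes kept of 28884 with a count), TMM, genotype as the only term, two-sided quasi-likelihood test, Benjamini-Hochberg adjustment over all genes tested (common dispersion 0.0445). The SE is |log2 fold change| over the root of the F statistic. Ratios were compared by exact permutation. Alternatives were 2 other normalizations, 2 other filters, protein-coding genes only, no mitochondrial genes, DESeq2 1.42.0, limma-voom and limma 3.58.1 on log2(FPKM + 1) and log2(FPKM + 0.1), the replicate block and leaving out each mouse. The fits were also run on simulated counts in which every gene had the common dispersion. The genes changed there moved more than any of the 9 genes did, so that run does not bear on the calls reported here. Total counts of 14053307 to 17150089 per library put 3 counts at 0.175 to 0.213 CPM, and these floors cover counting error only.

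Named genes are the 9 genes, up to 5 of each other list with the smallest p, up to 2 of each marker list, the most similar gene to each of the 9 (Gm and Rik names left out) and Trpm2. Some genes of these lists are not reported here. Lrp2, Smtn, Dpp4, Folh1, Atp6v0a1, Airn and the genes without counts were named after their values were seen. Of 75-base windows of the transcripts, 0.59% for Atp6ap2 and 0.017% for Mme occur in another gene, and none for the other 7.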

Additional observations from a re-analysis of the deposited data

How the results depend on the processing

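The counts per genotype are small, and leaving out single mice changed most counts of calls. Of the 9 genes, 3 were called lower, and 1 (Ace) with limma on log2(FPKM + 1) without a filter and with the replicate block. The range was 1 to 3 when each mouse was left out, with 1 without WT mouse 2 or 3. At the study's threshold 1 was called, and 1 to 2 without single mice (2 without WT mouse 1). No setting called any of the 9 higher. Of the 18 settings, Ace was called in 18, Tmem27 in 14 and Agt in 10, with log2 fold changes of -0.94 to -0.71 and -0.86 to -0.49 for the last 2. The block matches mice by replicate number. In it WT mouse 3 and Trpm2-/- mouse 4 have no partner, so its estimates rest on mice 1 and 2 of each genotype. The block gave Agt a log2 fold change of -0.49 (adjusted p = 0.164) and Tmem27 an adjusted p of 0.0802. Limma on FPKM gave Agt adjusted p-values of 0.0615 to 0.113. Signs turned for Enpep (-0.32 to 0.18 without single mice, with 0.05 without WT mouse 1 and 0.18 without Trpm2-/- mouse 2) and Mas1 (-0.30 to 0.26, with 0.26 without WT mouse 1). The cause was not tested.

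Over all genes, 1152 were called lower, with 754 under limma on log2(FPKM + 1), 405 under the same without a filter, 661 with the block and 470 to 1240 without single mice. Of 750 called higher, the count was 1262 without a filter, 304 and 338 under limma with pseudocounts of 1 and 0.1, 105 under limma without a filter, 341 with the block and 160 to 819 without single mice. At the study's threshold, 649 lower became 398 and 390 under limma on log2(FPKM + 1) with and without a filter (538 to 863 without single mice), and 553 higher became 117 and 110, or 1073 without a filter on counts (476 to 743 without single mice). Of 57 tested genes of the other pathway lists, 12 were lower, with 19 without a filter, 3 under limma without a filter and 4 to 14 without single mice. For those called higher, 3 became 5 without a filter, 0 under limma without a filter, 1 with the block and 2 to 4 without single mice.

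The replicate numbers 1 and 2 occur in both genotypes but are of different mice. Their deviations from the genotype means correlated at 0.096 and -0.003, so the numbers were not taken to pair samples, except in the block setting.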
